A study of Mus musculus with 6 samples.

Results

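The nuclear receptors are transcription factors that small lipophilic molecules can switch, and 36 of them outside the circadian clock are described here in mouse liver. The members were taken by symbol, as the nuclear receptor superfamily without its clock genes, and all 36 were found among the 23415 genes of the deposited table. The study set 3 alkaline sphingomyelinase knockout livers (animals 82, 84 and 85) against 3 wildtype livers (animals 81, 83 and 90), all on the C57BL/6 strain. The titles give only the letters K and W and an animal number, read here as knockout and wildtype. Alkaline sphingomyelinase, encoded by Enpp7, splits sphingomyelin in the gut. The question put to these data is whether the receptors, their cofactors or their known target genes differ in liver RNA when that enzyme is missing. Age, sex and the way the knockout was made are not given in the sources used here.

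Most nuclear receptors share a zinc finger domain that binds DNA and a pocket that binds a ligand. Many pair with a retinoid X receptor (RXR), recruit corepressors without ligand and coactivators with it, and read short repeated DNA motifs. In liver they couple bile acids, oxysterols, fatty acids, drugs, retinoids and hormones to the enzymes that make or clear those same molecules.

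Expression was deposited as 1 value per group with no unit named, taken from the table's layout to be FPKM, a read measure scaled for transcript length and sequencing depth, so that levels of different genes can be set side by side. Values of single mice and read totals were not used here, so no spread between mice can be given and the depth is unknown. Each log2 ratio is knockout over wildtype and carries the standard error (SE) that the authors' test statistic implies. Calls are those of the authors' deposited table at q under 0.05. Whether the 3 libraries of a group came from separate mice rests on the animal numbers alone. Enpp7 itself was near the floor, at 0.141 FPKM in knockout livers, with 0.0541 FPKM in wildtype livers, and does not check the genotype. The design text speaks of intestine and the tissue label of liver. The 8 hepatocyte markers summed to 26209 FPKM in knockout livers and 23229 FPKM in wildtype livers, although Alb is listed at 0 in both and so has no usable value. Without Apoa1, at 16007 FPKM (knockout) and 11662 FPKM (wildtype), they summed to 10202 FPKM (knockout) and 11567 FPKM (wildtype). Of 7 tested hepatocyte markers 0 were called, with 6 ratios below 0 and a median of -0.28. The 10 intestinal epithelium markers summed to 94.3 FPKM (knockout) and 80.4 FPKM (wildtype). Most of both sums came from Tff3, at 48.8 FPKM (knockout) and 23.9 FPKM (wildtype), and Fabp2, at 42.9 FPKM (knockout) and 54.7 FPKM (wildtype). Lgr5 was the next highest, at 1.00 FPKM (knockout) and 0.884 FPKM (wildtype). Of 4 tested intestinal markers 0 were called.

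The receptors spanned more than 3 orders of magnitude and kept nearly the same order in both groups. Hnf4a, the hepatocyte identity factor, was the highest, at 142 FPKM in knockout livers and 152 FPKM in wildtype livers. Nr2f6, Rxra, Nr1h3, Nr1h4 and Nr1i3 followed in both groups, with Nr2f6 ahead of Rxra in knockout livers and behind it in wildtype livers. Of the 10 highest receptors, 9 were the same in both groups. The level was above 10 FPKM in both groups for 13 members, between 1 and 10 FPKM in both for 17, and below 1 FPKM in both for 6. Those 6 were Nr1h5, Hnf4g, Vdr, Nr4a2, Nr4a3 and Nr2f1, none above 0.422 FPKM, and the authors did not test them. All 36 together summed to 743 FPKM in knockout livers and 738 FPKM in wildtype livers.

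**Figure D1:**
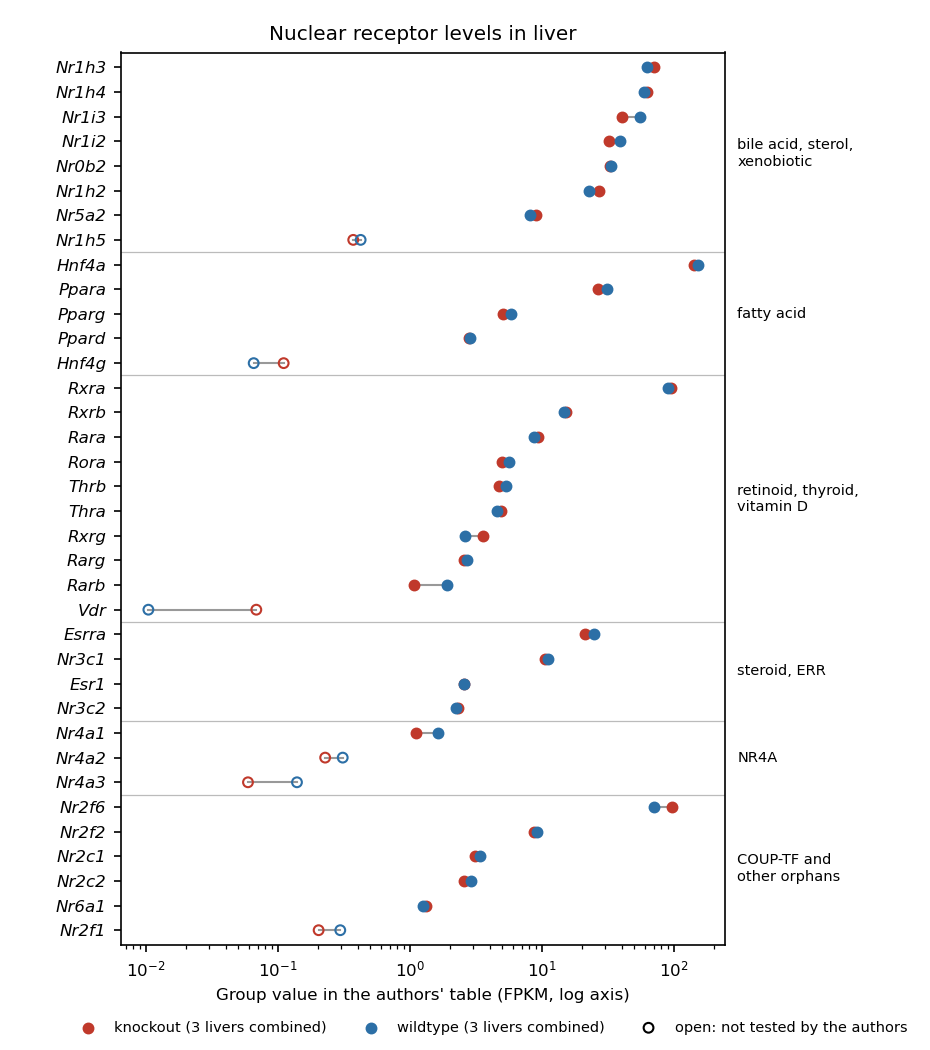
Level of each of the 36 nuclear receptors in FPKM on a log axis, with knockout in red and wildtype in blue, 1 point per group of 3 livers and no error bar because values per mouse were not used. Receptors are ordered by level within 6 functional classes. The paired points lie close together from Hnf4a at 142 FPKM (knockout) and 152 FPKM (wildtype) down to Nr6a1 at 1.32 FPKM (knockout) and 1.25 FPKM (wildtype), and the open points mark the 6 members that were not tested.

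No receptor passed the test. Of the 30 tested members, 0 had a q under 0.05 in the authors' deposited table, where 1.08% of all 11515 tested genes did (0.573% called higher and 0.504% called lower). Those were 66 genes higher and 58 lower, and with both groups given equal FPKM sums, which moved the median log2 ratio of all tested genes to -0.20, 49 were higher and 140 lower. At an unadjusted p under 0.05 in the authors' deposited table there were 2 of 30, 1 higher and 1 lower in knockout livers, beside 5.29% of all tested genes (2.82% higher and 2.47% lower). They were Rarb and Nr2f6. The other 28 all had a q of 0.9998 in the authors' deposited table. The median log2 ratio of the 30 was -0.04 and that of all tested genes 0.00 (-0.0012), with 12 ratios above 0 and 18 below. In size, 24 of the 30 ratios (80.0%) were under 0.25, beside 67.2% of all tested genes with a finite ratio.

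The errors set what could have been seen. The SE ran from 0.22 to 0.40 on the log2 scale over the 30 receptors, and the smallest ratio of any called gene was 0.78 in size. For 27 of the 30 the 95% interval of the ratio, a normal interval from the authors' SE, lay within a 2-fold change either way. The 3 whose interval reached past 2-fold were Rarb, Rxrg and Nr4a1. For 7 receptors, Nr0b2, Nr1h4, Rxra, Rxrb, Nr3c1, Esr1 and Nr2f2, the interval lay within 1.5-fold.

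**Figure D2:**
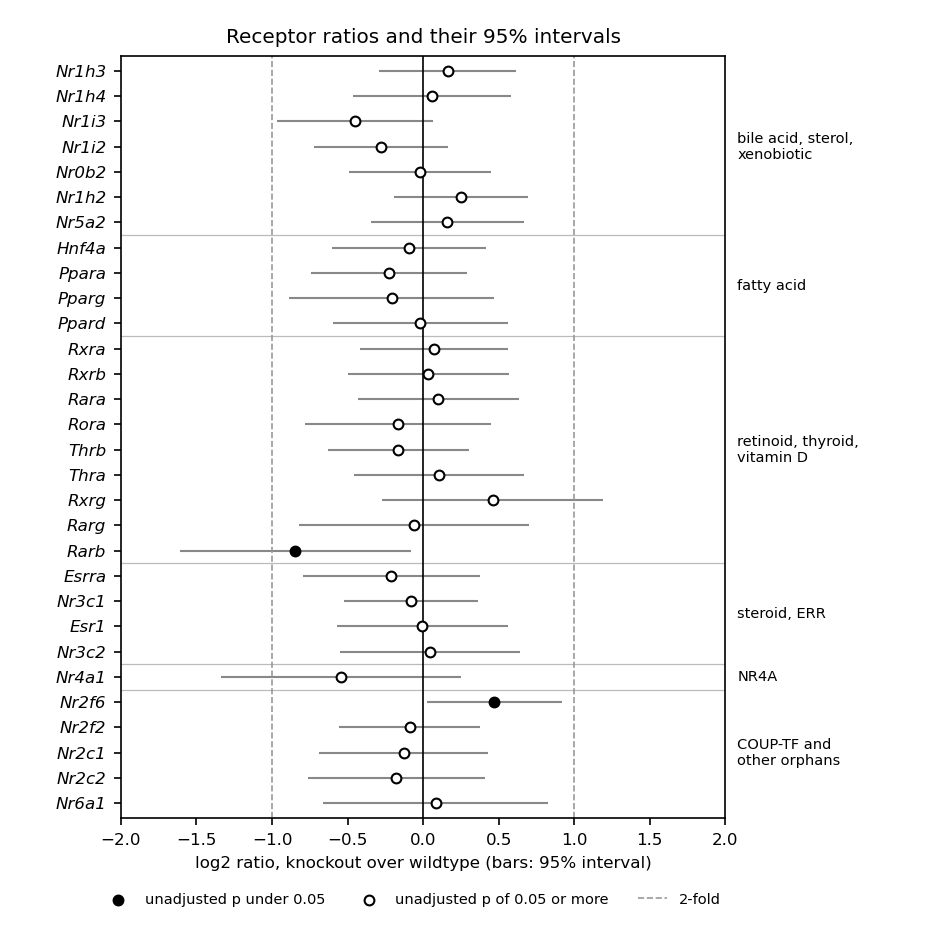
Log2 ratio of knockout over wildtype for the 30 tested receptors, with bars for the 95% interval from the authors' standard error and dashed lines at a 2-fold change. Filled points mark Rarb at -0.85 and Nr2f6 at 0.47, the 2 receptors with an unadjusted p under 0.05. The intervals of the other 28 cover 0.

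Retinoid, thyroid hormone and vitamin D receptors came nearest to a difference through a single member. Rarb, the retinoic acid receptor beta (chromosome 14, 16430840 to 16575210, mm10), was at 1.06 FPKM in knockout livers and 1.91 FPKM in wildtype livers, 55.6% of the wildtype value. This was the largest ratio in size among the tested receptors (log2 ratio -0.85 ± 0.39 SE, with p = 0.0298 and q = 0.750 per the authors' deposited table). Its interval ran from -1.61 to -0.08. The other retinoic acid receptors had ratios closer to 0. Rara stood at 9.25 FPKM (knockout) and 8.63 FPKM (wildtype), a log2 ratio of 0.10 ± 0.27, and Rarg at 2.57 FPKM (knockout) and 2.68 FPKM (wildtype), a log2 ratio of -0.06 ± 0.39. The 3 genes summed to 12.9 FPKM in knockout livers and 13.2 FPKM in wildtype livers, so most retinoic acid receptor RNA in either group was Rara.

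Rarb is known to be switched on by its own ligand, through a direct repeat in its promoter that a pair of RXR and retinoic acid receptor binds. Cyp26a1, the enzyme that clears retinoic acid, carries a repeat of the same kind and is known to respond to the ligand in the same way. Both sequences are shown because these were the lowest ratios among the retinoic acid receptors and among their listed targets. Each line gives 100 bases that end just before the RefSeq start of transcription (GRCm38.p6), 5′ to 3′ on the gene's own strand, with the repeat in capitals.
Rarb: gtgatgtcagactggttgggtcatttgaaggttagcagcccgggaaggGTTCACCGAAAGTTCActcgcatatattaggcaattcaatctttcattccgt
Cyp26a1: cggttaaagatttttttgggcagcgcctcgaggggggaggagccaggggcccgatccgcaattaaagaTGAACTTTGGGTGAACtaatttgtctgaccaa

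The Rarb line is chr14:16575477-16575576 on the minus strand, and the Cyp26a1 line chr19:37697708-37697807 on the plus strand. The capitals match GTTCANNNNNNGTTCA, searched on both strands. In Rarb the match read along the gene and lay 52 to 37 bases upstream of the start, and in Cyp26a1 it read against the gene and lay 32 to 17 bases upstream. The deposited Rarb locus starts 266 bases further down than the RefSeq start, while the Cyp26a1 starts coincide. Of 32851 RefSeq promoter windows of 300 bases, 25 (0.0761%) held the repeat, and of 49 windows belonging to 33 of the members, 1 did, that of Rarb. The letters searched are those that the Rarb and Cyp26a1 lines share, and looser forms of the repeat were not counted. That Rarb matched is thus no separate result, and the counts hold for this exact form only. The windows with a match belonged to 24 genes, of which 12 were in the deposited table and 6 were tested. These were Cyp26a1, Rarb, Dmd, Lcorl, Blvrb and Serpinf2, with 5 log2 ratios below 0, 1 above and 1 call, that of Cyp26a1. Rarb and Cyp26a1 had been picked for their low ratios, so their part in this tally was fixed beforehand. The others, none called, were at -0.41 ± 0.26 (Dmd), -0.16 ± 0.46 (Lcorl), -0.09 ± 0.22 (Blvrb) and 0.66 ± 0.30 (Serpinf2). Of all tested genes 1.08% were called. A match describes the letters only.

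Cyp26a1 fell to 3.92 FPKM in knockout livers, against 11.5 FPKM in wildtype livers (log2 ratio -1.55 ± 0.30, with q = 5.04e-05 per the authors' deposited table). It was the 1 called gene among 6 tested targets of the retinoic acid receptors, beside 1.08% of all tested genes called, and 5 of the 6 had an unadjusted p under 0.05 in the authors' deposited table, beside 5.29% of all tested genes. Those 5 lay on both sides. Cyp26b1, a second retinoic acid hydroxylase, was at 0.696 FPKM in knockout livers and 1.42 FPKM in wildtype livers, and Lrat, which esterifies retinol, at 2.28 FPKM (knockout) and 3.56 FPKM (wildtype). Tgm2, a transglutaminase, was at 62.2 FPKM (knockout) and 42.7 FPKM (wildtype), higher in knockout livers. Lrat also marks stellate cells, the liver's vitamin A store. The 10 stellate cell and fibroblast markers summed to 124 FPKM in knockout livers and 152 FPKM in wildtype livers. Of these 8 of 10 ratios were below 0 and 0 were called, beside 1.08% of all tested genes. At an unadjusted p under 0.05 in the authors' deposited table there were 3, Lrat itself among them. All 3 were lower, beside 2.47% of all tested genes lower at that p. The part of these cells in the Rarb and Lrat values was not tested. In bulk tissue fewer cells of a type and less RNA per cell cannot be told apart.

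No RXR gene, the shared partners, passed the test. Rxra was at 94.9 FPKM in knockout livers and 90.2 FPKM in wildtype livers (log2 ratio 0.07 ± 0.25) and made up 83.6% of the summed RXR FPKM in knockout livers and 83.9% in wildtype livers. Rxrb was at 15.1 FPKM (knockout) and 14.7 FPKM (wildtype), a log2 ratio of 0.03 ± 0.27. Rxrg, the scarcest of the 3, was at 3.56 FPKM (knockout) and 2.59 FPKM (wildtype), a log2 ratio of 0.46 ± 0.37, and its interval reached 1.19. The thyroid hormone receptors Thra and Thrb, which drive lipogenic and deiodinase genes in liver, were both near 5 FPKM. Thra had 4.91 FPKM in knockout livers and 4.56 FPKM in wildtype livers (0.10 ± 0.29), and Thrb 4.75 FPKM (knockout) and 5.32 FPKM (wildtype), a log2 ratio of -0.16 ± 0.24. The orphan receptor Rora was at 5.0 FPKM (knockout) and 5.60 FPKM (wildtype), a log2 ratio of -0.16 ± 0.31. Vdr, the vitamin D receptor, was nearly absent, at 0.0683 FPKM (knockout) and 0.0104 FPKM (wildtype), and was not tested.

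Among the thyroid hormone receptor targets 2 of 6 tested genes fell and 4 did not pass, 33.3% called beside 0.504% of all tested genes called lower. Thrsp, a lipogenic nuclear protein, fell to 711 FPKM in knockout livers, against 1778 FPKM in wildtype livers (log2 ratio -1.32 ± 0.28, with q = 0.000710 per the authors' deposited table). Me1, the malic enzyme that supplies NADPH, fell to 43.9 FPKM, against 86.3 FPKM in wildtype livers (-0.98 ± 0.23). Dio1, the deiodinase that activates thyroid hormone, lay on the other side at 112 FPKM (knockout) and 84.3 FPKM (wildtype) and did not pass. Klf9 and Bcl3 also had log2 ratios above 0, of 0.38 ± 0.23 and 0.27 ± 0.23, and did not pass. The 6 ratios thus split into 3 above 0 and 3 below, with a median of -0.09. The vitamin D targets were at or near 0, and Cyp24a1 is listed at 0 in both groups. Of the 4 only S100g was tested, at 0.0701 FPKM (knockout) and 0.842 FPKM (wildtype). Its log2 ratio of -3.59 ± 14.1 (p = 0.799 per the authors' deposited table) has too wide an error to show a direction.

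The receptors for bile acids, oxysterols and drugs included 6 of the 10 highest members in knockout livers and 5 of the 10 highest in wildtype livers, and 0 of their 7 tested genes passed. Nr1h4 encodes FXR, the bile acid receptor, and was at 62.1 FPKM in knockout livers and 59.6 FPKM in wildtype livers (log2 ratio 0.06 ± 0.27). Nr0b2 encodes SHP, a receptor without a DNA-binding domain that FXR induces and that represses bile acid synthesis. It was at 33.0 FPKM (knockout) and 33.4 FPKM (wildtype), a log2 ratio of -0.02 ± 0.24, with an interval from -0.49 to 0.45. Nr5a2 encodes LRH-1, the factor SHP silences at Cyp7a1, and was at 9.02 FPKM (knockout) and 8.07 FPKM (wildtype), a log2 ratio of 0.16 ± 0.26. Nr1h5, FXR beta, was under 1 FPKM and not tested.

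Beside these receptors, Cyp7a1, which catalyses the committed step from cholesterol to bile acids and is the gene that FXR, SHP and LRH-1 act on, fell to 14.0 FPKM in knockout livers, against 28.6 FPKM in wildtype livers (log2 ratio -1.02 ± 0.24, with q = 0.00309 per the authors' deposited table). The other 2 listed genes repressed through FXR and SHP were not called: Cyp8b1, the sterol 12-hydroxylase, was at 101 FPKM (knockout) and 124 FPKM (wildtype) and Slc10a1, the bile acid importer, at 438 FPKM (knockout) and 480 FPKM (wildtype). Of 7 tested genes that FXR induces, 0 were called and 0 had an unadjusted p under 0.05 in the authors' deposited table. Abcb11, the bile salt export pump, was at 112 FPKM in knockout livers and 93.7 FPKM in wildtype livers, and Pltp, a phospholipid transfer protein, had the smallest p of them, at 18.8 FPKM (knockout) and 33.4 FPKM (wildtype). Of the 6 LRH-1 targets Cyp7a1 was again the 1 call, 16.7% beside 0.504% of all tested genes called lower.

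The oxysterol receptors lay slightly higher in knockout livers as deposited without passing, and Nr1h3 turned to -0.033 with both groups scaled to the same FPKM sum. Nr1h3 (LXR alpha) was at 70.1 FPKM in knockout livers and 62.7 FPKM in wildtype livers (log2 ratio 0.16 ± 0.23), and Nr1h2 (LXR beta) at 27.0 FPKM (knockout) and 22.7 FPKM (wildtype), a log2 ratio of 0.25 ± 0.23. Of 10 tested LXR targets 1 fell and 9 did not pass, beside 0.504% of all tested genes called lower. Fasn, fatty acid synthase, fell to 59.1 FPKM, against 144 FPKM in wildtype livers (-1.28 ± 0.27, with q = 0.000664 per the authors' deposited table). Scd1, the stearoyl-CoA desaturase, was at 847 FPKM (knockout) and 1964 FPKM (wildtype), a log2 ratio of -1.21 ± 0.45, with q = 0.299 per the authors' deposited table. Of the sterol exporters among the targets Abca1 was at 14.8 FPKM (knockout) and 19.0 FPKM (wildtype) and Abcg5 at 50.8 FPKM (knockout) and 48.0 FPKM (wildtype).

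The drug receptors were both lower in knockout livers, again without passing. Nr1i3, the constitutive androstane receptor (CAR), was at 40.1 FPKM in knockout livers and 54.8 FPKM in wildtype livers (log2 ratio -0.45 ± 0.26, p = 0.0867 in the authors' deposited table), the third smallest p of the 30. Nr1i2, the pregnane X receptor (PXR), was at 32.0 FPKM (knockout) and 38.8 FPKM (wildtype), a log2 ratio of -0.28 ± 0.23. Of 11 tested PXR and CAR targets 3 fell, 0 rose and 8 did not pass, 27.3% called beside 0.504% of all tested genes called lower. Slco1a4, an organic anion importer, fell to 10.5 FPKM, against 24.8 FPKM in wildtype livers (-1.24 ± 0.24). Cyp2c55, a cytochrome P450, fell to 4.89 FPKM, against 10.2 FPKM in wildtype livers (-1.06 ± 0.29). Por, the electron donor of the microsomal P450 enzymes, fell to 167 FPKM, against 312 FPKM in wildtype livers (-0.90 ± 0.25). Cyp2b10, the classical CAR target, was at 3.16 FPKM (knockout) and 5.42 FPKM (wildtype) and did not pass (q = 0.571 per the authors' deposited table). The list median was -0.54, with 10 of 11 ratios below 0.

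All 4 tested fatty acid receptors had ratios below 0, and 0 of the 4 passed. Ppara, the receptor that induces fatty acid oxidation in fasting, was at 26.5 FPKM in knockout livers and 31.0 FPKM in wildtype livers (log2 ratio -0.22 ± 0.26), and its interval ran from -0.74 to 0.29. Pparg, the adipogenic receptor, was at 5.08 FPKM (knockout) and 5.87 FPKM (wildtype), a log2 ratio of -0.21 ± 0.35, and Ppard at 2.79 FPKM (knockout) and 2.83 FPKM (wildtype), a log2 ratio of -0.02 ± 0.30. Hnf4a, which binds fatty acids but is active without added ligand, was at a log2 ratio of -0.09 ± 0.26. Hnf4g, its relative of the gut, was at 0.110 FPKM (knockout) and 0.0653 FPKM (wildtype) and not tested.

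The targets of PPAR-alpha held the most calls of any list, and were also the longest list. By share called, other target lists stood higher, each on fewer tested genes. These were the thyroid hormone receptor targets (2 of 6, 33.3%) and the genes repressed through FXR and SHP (1 of 3, 33.3%). The PXR and CAR targets followed (3 of 11, 27.3%). Of 21 tested PPAR-alpha targets 5 fell, 0 rose and 16 did not pass, 23.8% called beside 0.504% of all tested genes called lower. The median log2 ratio was -0.41, with 20 of 21 below 0. Cyp4a14 and Cyp4a10, the fatty acid omega-hydroxylases, fell, with log2 ratios of -2.27 ± 0.31 and -1.78 ± 0.27. Acot3 and Acot1, acyl-CoA thioesterases, fell too, with log2 ratios of -2.55 ± 0.42 and -1.70 ± 0.33. Acaa1b, a peroxisomal thiolase, fell with a ratio of -0.94 ± 0.26. The Cyp4a genes and the Acot genes have near-identical copies, so that single values within each family are uncertain. Of 5 tested PPAR-gamma targets 0 were called. Plin4, a lipid droplet protein, had the smallest p, at 0.370 FPKM in knockout livers and 1.71 FPKM in wildtype livers (q = 0.108 per the authors' deposited table, called lower with equal FPKM sums). Of 12 HNF4-alpha targets 0 were called, with a median of -0.10. G6pc, glucose-6-phosphatase, was at 173 FPKM (knockout) and 308 FPKM (wildtype), a log2 ratio of -0.83 ± 0.27, with q = 0.137 per the authors' deposited table, called lower with equal FPKM sums.

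**Figure D3:**
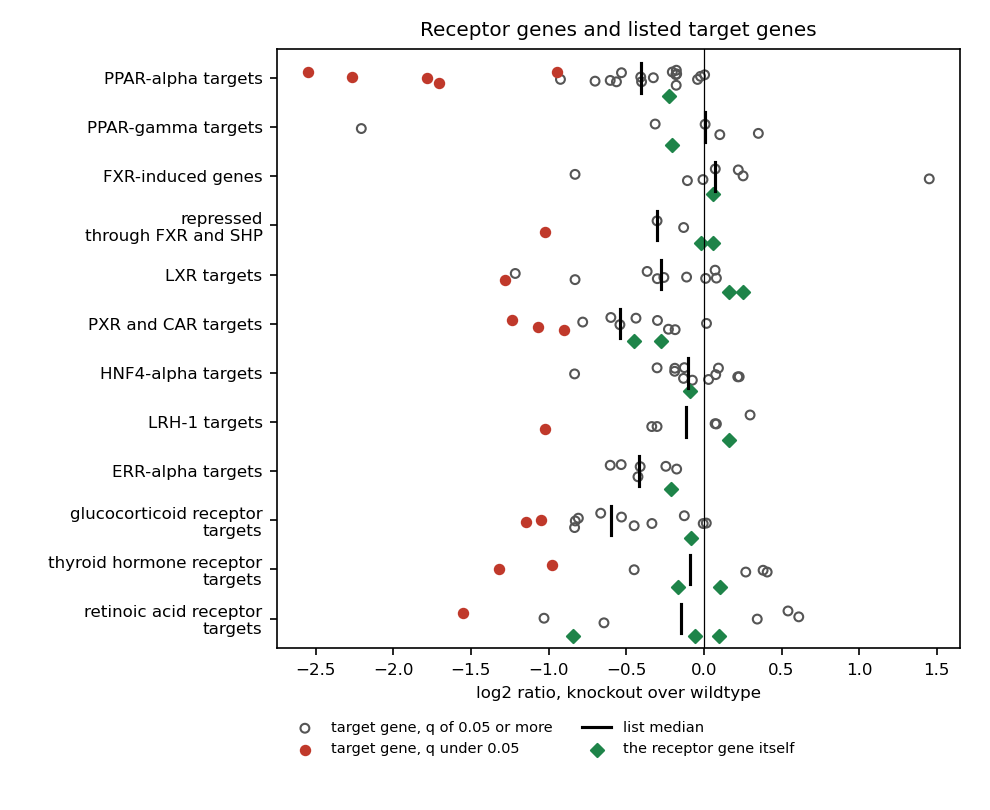
Log2 ratio of knockout over wildtype for receptor genes (green diamonds) and for the tested genes of 12 target lists (circles, filled red where q was under 0.05), with a black bar at each list's median. The diamond of Ppara stands at -0.22 beside a list with 5 calls and a median of -0.41, and that of Nr3c1 at -0.08 beside a list with 2 calls and a median of -0.60. All filled circles lie left of 0.

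Of the steroid and estrogen-related receptors 0 of 4 tested genes were called. Nr3c1, the glucocorticoid receptor, was at 10.6 FPKM in knockout livers and 11.2 FPKM in wildtype livers (log2 ratio -0.08 ± 0.22), with an interval from -0.52 to 0.36. Nr3c2, the mineralocorticoid receptor, was at 2.31 FPKM (knockout) and 2.24 FPKM (wildtype), a log2 ratio of 0.05 ± 0.30. Esr1, estrogen receptor alpha, was at 2.56 FPKM (knockout) and 2.57 FPKM (wildtype), a log2 ratio of -0.01 ± 0.29, the ratio nearest 0 of all. Esrra, which drives genes of mitochondrial metabolism, was at 21.2 FPKM (knockout) and 24.5 FPKM (wildtype), a log2 ratio of -0.21 ± 0.30.

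Of 12 tested targets of the glucocorticoid receptor 2 fell, 0 rose and 10 did not pass, 16.7% called beside 0.504% of all tested genes called lower. Of the 12, 7 had an unadjusted p under 0.05 in the authors' deposited table, all lower, beside 2.47% of all tested genes lower at that p. Dusp1, a MAP kinase phosphatase, fell to 20.5 FPKM, against 42.4 FPKM in wildtype livers (log2 ratio -1.05 ± 0.24). Zbtb16, a zinc finger repressor, fell to 1.91 FPKM, against 4.23 FPKM in wildtype livers (-1.15 ± 0.28). Tsc22d3, the leucine zipper protein GILZ, was at 48.8 FPKM (knockout) and 85.5 FPKM (wildtype), with q = 0.0831 per the authors' deposited table, and Per1, also a clock gene, at 8.16 FPKM (knockout) and 14.5 FPKM (wildtype), with q = 0.102 per the authors' deposited table. Tdo2 and Igfbp1, a tryptophan oxygenase and a binding protein of insulin-like growth factors, had log2 ratios of 0.02 ± 0.30 and 0.00 ± 0.25. The list median was -0.60, and 5 targets were called lower after scaling to equal FPKM sums. All 6 ERR-alpha targets had ratios below 0, with a median of -0.42 and 0 calls.

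The NR4A receptors are immediate early genes without a known classical ligand, and they were scarce. Nr4a1 was at 1.12 FPKM in knockout livers and 1.63 FPKM in wildtype livers (log2 ratio -0.54 ± 0.40), with the widest error of the tested receptors. Nr4a2 was at 0.227 FPKM (knockout) and 0.309 FPKM (wildtype) and Nr4a3 at 0.0591 FPKM (knockout) and 0.139 FPKM (wildtype), both not tested.

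Among the orphan receptors Nr2f6 had the only ratio above 0 with an unadjusted p under 0.05. Nr2f6, a repressor of the COUP-TF family (chromosome 8, 71374119 to 71381952, mm10), was at 97.2 FPKM in knockout livers and 70.1 FPKM in wildtype livers (log2 ratio 0.47 ± 0.23, with p = 0.0389 and q = 0.853 per the authors' deposited table). Its interval ran from 0.02 to 0.92. Its relative Nr2f2 (COUP-TFII) was at 8.66 FPKM (knockout) and 9.21 FPKM (wildtype), a log2 ratio of -0.09 ± 0.24, and Nr2f1 (COUP-TFI) at 0.203 FPKM (knockout) and 0.296 FPKM (wildtype) and not tested. The testicular receptors Nr2c1 and Nr2c2 bind the same kind of repeats as RXR partners. Nr2c1 was at 3.10 FPKM (knockout) and 3.40 FPKM (wildtype), a log2 ratio of -0.13 ± 0.28, and Nr2c2 at 2.56 FPKM (knockout) and 2.90 FPKM (wildtype), a log2 ratio of -0.18 ± 0.30. Nr6a1, the germ cell nuclear factor, was at 1.32 FPKM (knockout) and 1.25 FPKM (wildtype), a log2 ratio of 0.08 ± 0.38.

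Of the 36 receptors 10 share exon bases with a gene on the opposite strand, 4 of them over 30% of their exon bases, and the sources used here do not say whether the reads were assigned by strand. Those 4 were Rarb, Nr2f6, Nr1i3 and Nr2c2, the first 3 being the receptors with the smallest p. In the GENCODE vM21 annotation of GRCm38, 34.1% of the Rarb exon bases overlap Top2b, 54.4% of those of Nr2f6 overlap Ocel1, 74.9% of those of Nr1i3 overlap Tomm40l and 30.7% of those of Nr2c2 overlap Mrps25. Top2b was at 6.10 FPKM in knockout livers and 6.76 FPKM in wildtype livers, Ocel1 at 5.24 FPKM (knockout) and 4.55 FPKM (wildtype), and Tomm40l at 17.7 FPKM (knockout) and 21.4 FPKM (wildtype). These 3 neighbours lay on the same side as their receptors. Mrps25, at 2.14 FPKM (knockout) and 2.01 FPKM (wildtype), lay on the other side from Nr2c2. Their part in the receptors' values was not tested. Thra shares 5.70% of its exon bases with Nr1d1, the clock receptor REV-ERB alpha.

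No cofactor passed the test. Of 15 coactivators and 10 corepressors, all tested, 0 were called, beside 1.08% of all tested genes. After scaling to equal FPKM sums 2 coactivators were called lower. Among coactivators Lpin1, also a phosphatidate phosphatase, was at 33.4 FPKM in knockout livers and 61.0 FPKM in wildtype livers (log2 ratio -0.87 ± 0.30, with q = 0.189 per the authors' deposited table). Lpin1 and Pprc1 were the 2 coactivators with an unadjusted p under 0.05 in the authors' deposited table, and 0 corepressors had one. That is 2 of 25 cofactors (8%), both lower, beside 5.29% of all tested genes (2.47% lower). Lcor had the smallest p of the corepressors, at 0.473 FPKM (knockout) and 0.721 FPKM (wildtype). The medians were -0.09 for coactivators and -0.14 for corepressors. Of 11 tested enzymes that make or clear receptor ligands, 1 was called, Cyp26a1 as above, 9.09% beside 0.504% of all tested genes called lower. Akr1d1, the steroid and bile acid reductase, had the next smallest p, at 39.6 FPKM (knockout) and 59.0 FPKM (wildtype), with q = 0.379 per the authors' deposited table.

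The other 13 members of the superfamily, the clock receptors among them, held 3 tested genes. Nr1d1 rose to 41.0 FPKM in knockout livers, against 19.2 FPKM in wildtype livers (log2 ratio 1.10 ± 0.23, with q = 0.000429 per the authors' deposited table), and was the 1 called nuclear receptor gene of the 49 in the superfamily as deposited. Nr1d2 was at 14.4 FPKM (knockout) and 16.1 FPKM (wildtype), a log2 ratio of -0.17 ± 0.22.

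Over all target lists, with each gene counted once, 95 genes were tested, 15 fell, 0 rose and 80 did not pass. That is 15.8% called beside 1.08% of all tested genes. Their median log2 ratio was -0.30, with 70 ratios below 0 and 25 above. The lists were drawn up with earlier results of these data known, so this share is a description of the genes listed. The difference between the receptors and their targets was not tested.

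Of the markers of other cells, neutrophil genes had the most calls. The 9 neutrophil markers found summed to 109 FPKM in knockout livers and 5.93 FPKM in wildtype livers, with 4 of 9 called higher, beside 0.573% of all tested genes. The 7 Kupffer cell markers summed to 230 FPKM (knockout) and 156 FPKM (wildtype), with 7 of 7 ratios above 0. Marco was the 1 called higher, beside 0.573% of all tested genes. An unadjusted p under 0.05 in the authors' deposited table was held by 5 of the 7, all higher, beside 2.82% of all tested genes. The 10 sinusoidal endothelium markers summed to 140 FPKM (knockout) and 149 FPKM (wildtype) with 0 called. The 6 cholangiocyte markers summed to 152 FPKM (knockout) and 71.6 FPKM (wildtype). Spp1 was the 1 call and held most of that sum, at 142 FPKM (knockout) and 62.6 FPKM (wildtype), and the other 5 summed to 10.6 FPKM (knockout) and 8.99 FPKM (wildtype). The 9 lymphocyte markers summed to 3.78 FPKM (knockout) and 4.64 FPKM (wildtype) and the 4 adipocyte markers to 0.163 FPKM (knockout) and 0.918 FPKM (wildtype). Only 2 of the lymphocyte markers and 1 of the adipocyte markers were tested, with 0 called in either. That adipocyte marker, Cfd, had an SE of 52.2. The part of all these cell types in the receptor and target values was not tested.

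Scaling to equal sums moves every receptor by the same amount. The deposited values of all genes summed to 646306 FPKM in knockout livers and 564749 FPKM in wildtype livers. Scaling both to the same sum moved the median log2 ratio of all tested genes to -0.20 and that of the receptors to -0.23, and then 3 receptors were above 0 and 27 below. Relative to all genes the receptors stayed where they were, and 0 were called under that scaling (smallest q 0.234). With the 100 genes of highest FPKM left out of the sum, 10 receptors were above 0 and 20 below.

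**Figure D4:**
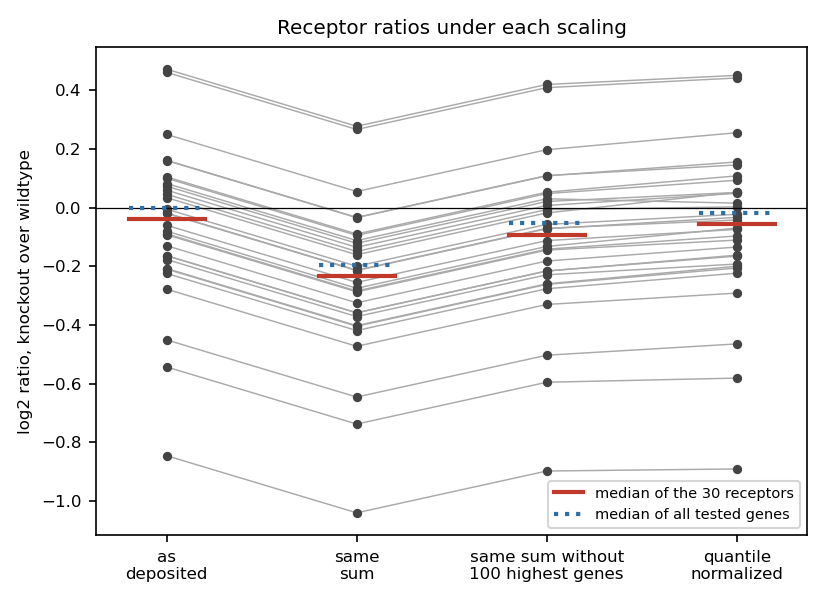
Log2 ratios of knockout over wildtype for the 30 tested receptors (grey points, joined per gene) under the deposited values and 3 other scalings. The receptor median (red) stands at -0.04 as deposited and at -0.23 with equal sums, beside -0.20 for all tested genes (blue, dotted) under equal sums, so that both medians move together.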

How the data were processed

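Liver RNA of 6 mice was sequenced as single-end reads from TruSeq libraries, per the labels' protocols. Bowtie2 and mm10 are named, without version, per the submitters' processing notes, while the quantifying program is named in none of the sources used here. The authors deposited group values whose unit the file headers do not name. They were taken as the authors' FPKM because the layout is that of a Cuffdiff table. The log2 column has wildtype on top, per the file headers, and all ratios here were recomputed with knockout on top. The deposited test statistic, a score, equalled a normal z (largest difference in p 2.63e-06), and Benjamini-Hochberg adjustment of the deposited p-value over the 11515 tested genes gave back the deposited q-value.

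Dividing a log2 ratio by the deposited z gave its SE, and intervals are at 95%. In recalculations under other scalings the same SE was used with a new adjustment, a step tested on simulated data. The simulated noise was drawn from that same SE, so the simulation cannot show whether the SE holds under another scaling. The limma test planned for values per library could not be used on group values. The 59 tested genes with a value of 0 in 1 group stayed out of medians. The table holds 0 columns of other series. Every member is named, with full values where tested. Of each other list at most 5 called genes, or else the gene with the smallest p, are named by rule. Further list genes were named after their values were seen, and some genes that the rule names are not reported here. The members, the 26 gene lists (227 of 228 genes found, Adgre1 under an older symbol) and the DNA repeat searched were chosen with earlier results of these data known. A second deposited list, of 95 differential genes, holds 0 members. Python 3.11.15, pandas 2.3.3, scipy 1.17.1 and matplotlib 3.10.9 were used.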

Additional observations from a re-analysis of the deposited data

How the results depend on the processing

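No paired analysis was possible because the replicate numbers of the knockout and wildtype animals do not overlap and values per library were not used. For the same reason leaving out each library in turn was not run. No receptor was called under any of the 4 alternatives with a test. With equal FPKM sums the calls over all genes moved from 124 (66 higher, 58 lower) to 189 (49 higher, 140 lower), while the other alternatives gave 121 to 134. Equal sums also moved the calls to 2 for the other nuclear receptors (also 2 with the 100 highest genes left out), 1 for PPAR-gamma targets, 1 for HNF4-alpha targets, 5 for glucocorticoid receptor targets, 2 for coactivators and 2 for ligand enzymes. Receptors that changed sign with equal sums were Nr1h3 (-0.033), Nr1h4 (-0.14), Nr5a2 (-0.034), Rxra (-0.12), Rxrb (-0.16), Rara (-0.095), Thra (-0.090), Nr3c2 (-0.15) and Nr6a1 (-0.11), and with the 100 highest genes left out Rxrb (-0.018) and Nr3c2 (-0.0066). Equal sums shift every log2 ratio by -0.19, so that small positive ratios cross 0. A pseudocount of 1 or 0.5 changed no receptor's sign, nor did a minimum of 1 FPKM or quantile normalization. Pseudocounts shrink low genes: a pseudocount of 1 gave -1.55 for Acot3, -0.98 for Plin4, -1.89 for Cyp4a14, -0.85 for Zbtb16 and -0.50 for Rarb. The vitamin D targets had no gene left at that minimum. Depth is unknown.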
